A study of Homo sapiens with 10 samples.

Results

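FBXW7 and 8 genes of the SCF ubiquitin ligases and their partners were followed through ribosome footprints and total RNA of KOPT-K1, a cell line from human T-cell acute lymphoblastic leukaemia, here T-ALL. The 9 genes are SKP1, CUL1, RBX1, FBXW7, SKP2, BTRC, FBXW11, USP28 and HUWE1. They were chosen by name, as the core subunits of the SCF complex, 4 of its F-box proteins, a deubiquitinase that opposes FBXW7 and a second ligase of MYC. They are 9 of the 55889 gene IDs with values, and all 9 were among the 10297 genes tested. The cells were cultured in RPMI with 20% serum and given the solvent DMSO or the natural product silvestrol at 25 nM for 45 minutes. Silvestrol inhibits the helicase eIF4A, which unwinds the 5′ ends of mRNAs for ribosome loading, and the series title ties that helicase to RNA G-quadruplexes. Each treatment had 2 footprint libraries and 3 total RNA libraries, all from this 1 line with no genetic change named in the labels. The labels do not say whether replicates were separate cultures. The p-values therefore set the difference between treatments against a spread between libraries that may be technical.

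An SCF ligase is built on the cullin CUL1, a long scaffold. One end of CUL1 binds the RING protein RBX1, which brings the ubiquitin-loaded E2 enzyme, and the other end binds the adaptor SKP1, which holds an exchangeable F-box protein. The F-box protein chooses the substrate, in many cases through a phosphorylated motif called a degron. FBXW7 directs MYC, the NOTCH1 intracellular domain, cyclin E and MCL1 to the proteasome and is a tumour suppressor that is often mutated in T-ALL. SKP2 is an F-box protein for the cell cycle inhibitor p27 (CDKN1B). BTRC and its paralog FBXW11, the beta-TrCP proteins, recognise beta-catenin, the NF-kappa-B inhibitor NFKBIA and PDCD4, a protein that itself binds eIF4A.

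The sequences that bear on these genes come first. A 30-base stretch of FBXW7 is shown because it is the predicted G-quadruplex found in a 5′ untranslated region (UTR) of a member. It lies in 2 of the 7 basic FBXW7 transcripts of GENCODE release 29, on the sense strand, 392 and 349 bases before the start codon, and the capitals mark its runs of G.
FBXW7 5′ UTR: GGGcggcGGGGccGGGGGGGacccGGGGGG
The search asked for 4 runs of at least 3 G with 1 to 7 bases between them, on the sense strand only. FBXW7's own chosen transcript, with a 5′ UTR of 241 bases, lacks this stretch, and no other basic transcript of a member had a match. Among 8831 tested genes with a 5′ UTR in their chosen transcript, 10.9% held such a match there. That share covers chosen transcripts only, and no member's chosen transcript held a match. The share of tested genes with a match in any basic transcript, the like measure for FBXW7, was not counted. Which FBXW7 transcripts KOPT-K1 cells use cannot be read from values given per gene.

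A run of 4 repeats of GGC, CGG or GCG was also looked for, on the sense strand. None of the basic transcripts of the 9 genes held one, beside 6.25% of 8897 tested genes with at least 1 such transcript and 5.03% of 8831 chosen transcripts. The chosen 5′ UTRs ran from 40 bases in RBX1 to 458 in HUWE1, and the median over tested genes was 198 bases. GC content was lowest in FBXW7, at 47.3%, and highest in FBXW11 and USP28, at 81.9% and 81.2%, with a median of 66.0% over tested genes. A missing match says only that these letters are not in these windows.

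Coding stretches shared with another gene are shown because a footprint is about as long as the window compared, 28 bases, and the labels do not say how the authors assigned reads with several possible origins. SKP1 had the most shared sequence. Of its 465 coding windows, 357 (76.8%) also occurred in a transcript of another annotated gene. The pseudogene SKP1P1 and the noncoding RNA LINC00174 each held 40.0% of them, AC104109.3, which overlaps SKP1 on the same strand, 31.0%, and the pseudogene SKP1P2 21.1%. Mean footprints over both treatments were 0.215 RPKM for SKP1P1, 0.080 RPKM for LINC00174 and 10.5 RPKM for SKP1P2. AC104109.3 has no values in the data. The longest run shared with SKP1P2 covers coding bases 277 to 378, and 32 bases are shared by the paralogs BTRC and FBXW11. All are printed 5′ to 3′ from GENCODE release 29 (GRCh38).
SKP1 with SKP1P2: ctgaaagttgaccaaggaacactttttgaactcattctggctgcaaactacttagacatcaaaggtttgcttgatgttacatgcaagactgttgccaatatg
BTRC with FBXW11: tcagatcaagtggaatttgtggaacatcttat
FBXW11 with FBXW11P1: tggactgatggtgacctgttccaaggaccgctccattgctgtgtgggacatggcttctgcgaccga
FBXW11 shared 17.9% of its windows, CUL1 6.29% and SKP2 2.96%. BTRC shared 0.279%, which is 5 windows, all with FBXW11, and HUWE1 0.0687%. FBXW7, RBX1 and USP28 shared none, so by exact windows this limit touches SKP1 first and FBXW11 second. Stretches that differ by a base were not searched, so the lack of a shared window does not clear a gene. The pseudogene RBX1P1, described at the end, was listed with footprints though it shares no exact window with RBX1.

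The values are RPKM, reads per kilobase of gene per M reads of the library, as deposited. They are scaled to each library's total, so a general loss of RNA or of translation per cell is not visible in them, and fewer cells and less RNA per cell cannot be told apart. Estimated totals were 1.66 to 2.38 M reads in footprint libraries and, more roughly, 127 to 216 M in RNA libraries. The median SD between replicates was 0.18 and 0.19 on the log2 scale in footprints, against 0.04 and 0.05 in RNA. Of 14 T-cell markers 12 were tested, while all matched myeloid, erythroid and stromal markers had a mean RNA level under 1 RPKM. Among 6 B-cell markers CD79A and CD79B were measured, and MS4A1, PAX5 and CD22 were at 0.

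At the level of RNA the 9 genes spanned a wide range and kept 1 order in both treatments. SKP1 was highest and was followed by CUL1, HUWE1, SKP2, RBX1, FBXW7, FBXW11, BTRC and USP28, and no neighbours in this order had overlapping library values, in DMSO or in silvestrol. RBX1, the RING subunit, stood next to FBXW7 in this order and below SKP2, and well below the scaffold it binds. Within a library, RBX1 RNA was 0.263 of CUL1 RNA in DMSO and 0.261 in silvestrol (means of 3 libraries). FBXW7 RNA was 0.228 and 0.232 of CUL1 RNA, and SKP1 RNA was 1.79 and 1.77 times CUL1 RNA. Footprints gave another order. RBX1 was highest in both treatments, SKP1, CUL1 and SKP2 overlapped with each other below it, and HUWE1 stood alone in the middle.

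**Figure D1:**
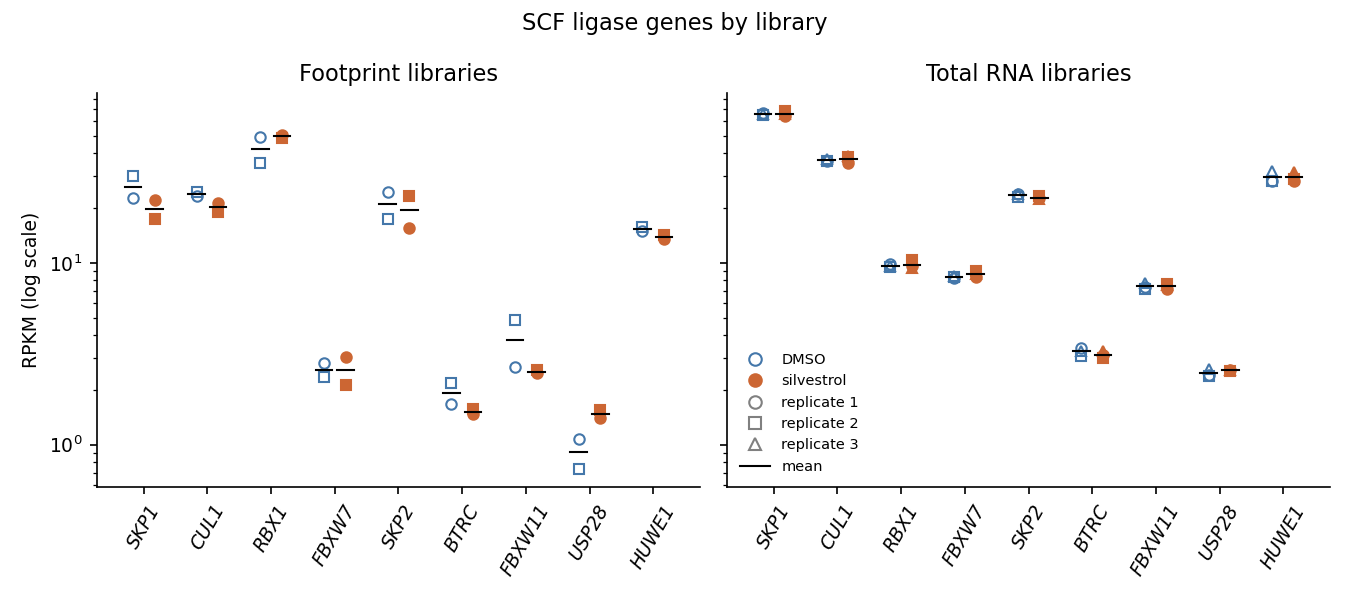
RPKM of the 9 genes on a log axis, in footprint libraries (left, 2 per treatment) and total RNA libraries (right, 3 per treatment). Points are libraries, open for DMSO and filled for silvestrol, and black bars are group means; RNA points of a gene lie nearly on each other, while footprint points spread, and RBX1 is highest among footprints but in the middle for RNA.

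SKP1 (ENSG00000113558.12, chromosome 5), the adaptor between CUL1 and the F-box proteins, had footprint levels of 22.6 and 29.9 RPKM in DMSO and 22.1 and 17.4 RPKM in silvestrol. The silvestrol libraries lay below both DMSO libraries, by a narrow margin at the nearest pair. SKP1 RNA was 66.2, 65.2 and 65.8 RPKM in DMSO and 64.3, 68.0 and 65.8 RPKM in silvestrol, which overlap. Translational efficiency, the footprint level relative to the RNA level of the same gene, was compared between treatments as the interaction of assay and treatment. For SKP1 its log2 change was -0.40 (95% confidence interval -0.87 to 0.06), with a limma adjusted p of 0.724, the smallest among the 9 genes. The pseudogene SKP1P2 was listed with footprints of 7.07 and 16.9 RPKM in DMSO and 4.22 and 13.8 RPKM in silvestrol, at a mean RNA level of 0.0621 RPKM. Its estimated footprint reads per library were between 5 and 14, and their part in the SKP1 values was not tested. SKP1 exons also share 210 bases with TCF7 on the opposite strand, and whether strand was used in counting is not known.

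CUL1 (ENSG00000055130.10, chromosome 7), the scaffold, had footprints of 23.3 and 24.6 RPKM in DMSO and 21.3 and 19.1 RPKM in silvestrol. Both silvestrol libraries were lower, and RNA overlapped, at 36.3, 36.5 and 37.3 RPKM against 35.5, 38.2 and 38.5 RPKM. The log2 change of translational efficiency was -0.27 (interval -0.77 to 0.24, limma adjusted p = 0.866). CUL1 shares 385 exon bases with an antisense gene, 10.9% of its exon length.

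RBX1 (ENSG00000100387.8, chromosome 22), the RING subunit that also serves most other cullins, stood apart by its footprints. They were 49.1 and 35.6 RPKM in DMSO and 50.6 and 48.6 RPKM in silvestrol, while its RNA was 9.83, 9.48 and 9.61 RPKM and 9.59, 10.3 and 9.41 RPKM. The treatments overlapped in both assays. Mean footprints over mean RNA came to 4.39 in DMSO and 5.08 in silvestrol, at percentiles 98.1 and 98.3 of all tested genes. The log2 change of translational efficiency was 0.23 (interval -0.34 to 0.79, limma adjusted p = 0.921). Within a footprint library RBX1 was 1.78 times CUL1 in DMSO (1.45 and 2.11) and 2.46 times in silvestrol (2.38 and 2.54). These values do not overlap and were not tested, and how often pairs among all genes do so was not counted. SKP1 over RBX1 did not overlap either, at 0.460 and 0.840 in DMSO and 0.358 and 0.437 in silvestrol. FBXW7 over USP28 also did not, at 2.61 and 3.20 in DMSO and 1.37 and 2.17 in silvestrol. Overlap was seen for SKP2 and FBXW7 over CUL1, FBXW7 over SKP2, FBXW11 over BTRC and HUWE1 over FBXW7. SKP1 over CUL1 did overlap, at 0.970 and 1.22 in DMSO and 0.911 and 1.04 in silvestrol.

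FBXW7 (ENSG00000109670.8, chromosome 4), the F-box protein of MYC and NOTCH1, had footprints of 2.82 and 2.36 RPKM in DMSO and 3.04 and 2.13 RPKM in silvestrol. The silvestrol libraries lay on both sides of the DMSO libraries, and replicate 1 was the higher of its pair in both treatments. Means were 2.59 ± 0.33 RPKM (SD, n = 2) and 2.58 ± 0.64 RPKM (n = 2). FBXW7 RNA was 8.30, 8.34 and 8.49 RPKM in DMSO and 8.35, 9.02 and 8.65 RPKM in silvestrol, with overlap. The log2 change was -0.06 for translational efficiency (interval -0.67 to 0.55, limma adjusted p = 0.987). For RNA it was 0.05 (interval -0.03 to 0.13, limma adjusted p = 0.834). Estimated footprint reads of FBXW7 were 43.4 to 80.2 per library.

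FBXW7 was among the genes with few footprints for their RNA. Its ratio was 0.309 in DMSO, at percentile 9.12, and 0.298 in silvestrol, at percentile 10.5, where the median of tested genes was 0.740 and 0.694. The exon length of a gene counts its untranslated parts, which carry few footprints. With the DMSO ratio multiplied by transcript length over coding length, FBXW7 stood at percentile 10.8 of 8942 genes and RBX1 at 99.1. USP28 and HUWE1 lay lower still on that scale, at percentiles 7.57 and 9.53, so a low place was not particular to FBXW7 among the members. USP28, HUWE1 and CUL1 (to 22.4) moved down from their unscaled places, while SKP2, BTRC and FBXW11 moved up. SKP1 moved furthest under that scaling. It moved from percentile 15.6 to 96.2, since only 5.19% of its chosen transcript is coding, so its place depends on the length taken.

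SKP2 (ENSG00000145604.11, chromosome 5), the F-box protein of p27, had footprints of 24.5 and 17.4 RPKM in DMSO and 15.6 and 23.2 RPKM in silvestrol, with wide overlap. Its RNA was 24.0, 23.1 and 23.8 RPKM and 22.6, 23.2 and 22.4 RPKM, also overlapping. The RNA log2 change of -0.05 (interval -0.12 to 0.01) had the smallest RNA adjusted p of the 9 genes in limma, 0.665. Translational efficiency changed by -0.06 (interval -0.59 to 0.47, limma adjusted p = 0.982) on the log2 scale.

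The beta-TrCP paralogs BTRC (ENSG00000166167.13, chromosome 10) and FBXW11 (ENSG00000072803.13, chromosome 5) were both low. BTRC had footprints of 1.68 and 2.19 RPKM in DMSO and 1.47 and 1.57 RPKM in silvestrol, and FBXW11 had 2.69 and 4.86 RPKM against 2.49 and 2.56 RPKM. Both genes' silvestrol libraries lay below their DMSO libraries, and in FBXW11 the DMSO replicates lay far apart. RNA was 3.42, 3.08 and 3.27 RPKM against 3.13, 3.00 and 3.26 RPKM for BTRC, and 7.35, 7.19 and 7.71 RPKM against 7.21, 7.67 and 7.56 RPKM for FBXW11. Within a library FBXW11 RNA was 2.28 times BTRC RNA in DMSO and 2.39 times in silvestrol. The log2 changes of translational efficiency were -0.21 for BTRC (interval -0.98 to 0.55) and -0.46 for FBXW11 (interval -1.15 to 0.23), with limma adjusted p of 0.944 and 0.814.

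USP28 (ENSG00000048028.7, chromosome 11), a deubiquitinase that removes ubiquitin from FBXW7 substrates such as MYC, was the lowest of the 9. Its footprints were 1.08 and 0.737 RPKM in DMSO and 1.40 and 1.55 RPKM in silvestrol, and it was the member whose silvestrol footprints both lay above DMSO. Those values rest on an estimated 6.99 to 19.0 reads per library. USP28 RNA was 2.43, 2.40 and 2.61 RPKM and 2.56, 2.54 and 2.58 RPKM. The log2 change of translational efficiency was 0.46 (interval -0.31 to 1.23, limma adjusted p = 0.842).

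HUWE1 (ENSG00000086758.11, chromosome X), a large HECT-type ligase that acts on MYC and MCL1 without SCF, had footprints of 15.0 and 15.7 RPKM in DMSO and 13.5 and 14.2 RPKM in silvestrol. The silvestrol libraries were lower, each by little. HUWE1 RNA was 28.3, 28.2 and 31.9 RPKM and 28.2, 29 and 31.6 RPKM, with replicate 3 highest in both treatments. Translational efficiency changed by -0.15 on the log2 scale (interval -0.95 to 0.65, limma adjusted p = 0.967).

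Across the 9 genes, none passed the test in translational efficiency, footprints or RNA. A gene was called at a limma adjusted p under 0.05, and of all 10297 genes this called 0.107% in translational efficiency, 0.0486% in footprints and 0.282% in RNA. By direction, lower and higher in silvestrol, these were 0.0874% and 0.0194% in translational efficiency, 0.0291% and 0.0194% in footprints, and 0.00971% and 0.272% in RNA. A count of 0 among 9 genes is near that background and is no result about the members. None of the 9 reached an unadjusted p of 0.05 in these 3 fits. Of all 10297 genes, 760 were under it in translational efficiency, 719 in footprints and 950 in RNA. For translational efficiency, limma with 1 spread for both assays called none of the 9 beside 5.29% of tested genes. At an unadjusted p under 0.05 it gave 3 members (SKP1, CUL1 and USP28). Voom weights on estimated reads called none, with 1 (SKP1) at an unadjusted p under 0.05. How many of all tested genes reached that unadjusted p under either setting is not given here. The 3 and the 1 are therefore no result about the members. Over the alternatives tried, the smallest adjusted p of a member was 0.128 for translational efficiency, 0.634 for footprints and 0.373 for RNA.

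The intervals depend on the fit that gave them. For RNA they ran from 0.896-fold to 1.10-fold over the 9 genes. For translational efficiency they ran from 0.450-fold to 2.34-fold and for footprints from 0.406-fold to 3.22-fold. The log2(RPKM + 0.5) scale understates changes of low genes such as USP28 and BTRC. The translational efficiency fit sets 1 weight per assay for all genes. Its SE was 0.37 for HUWE1, against 0.17 for footprints and 0.06 for RNA, and 0.28 for FBXW7, against 0.32 for footprints. Its intervals therefore hold under those weights and are no firm limit on the change of a single gene. Footprint log2 changes lay between -0.45 for FBXW11 and 0.50 for USP28, and their smallest limma adjusted p was 0.738, for SKP1. By estimate USP28 had 6.99 to 19.0 footprint reads per library, BTRC 21.1 to 25.2, SKP2 111 to 213, RBX1 183 to 372 and HUWE1 453 to 591. Footprint libraries of the treatments did not overlap in 5 of 9 genes with lower values in silvestrol (SKP1, CUL1, HUWE1, BTRC and FBXW11), beside 25.2% of all tested genes. They did not overlap in 1 of 9 with higher values (USP28), beside 13.1%. In RNA no member was free of overlap, beside 3.99% of tested genes lower and 8.97% higher.

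The median log2 change of translational efficiency was -0.15 over the members and -0.08 over all tested genes, and 7 of 9 members had a negative value beside 59.9% of tested genes. FBXW7 and SKP2 turned positive, at 0.024 or less, when libraries were scaled to equal medians or by trimmed means. Median footprint changes were -0.14 for the members and -0.07 for all tested genes. Median RNA changes were 0.01 and 0.00.

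**Figure D2:**
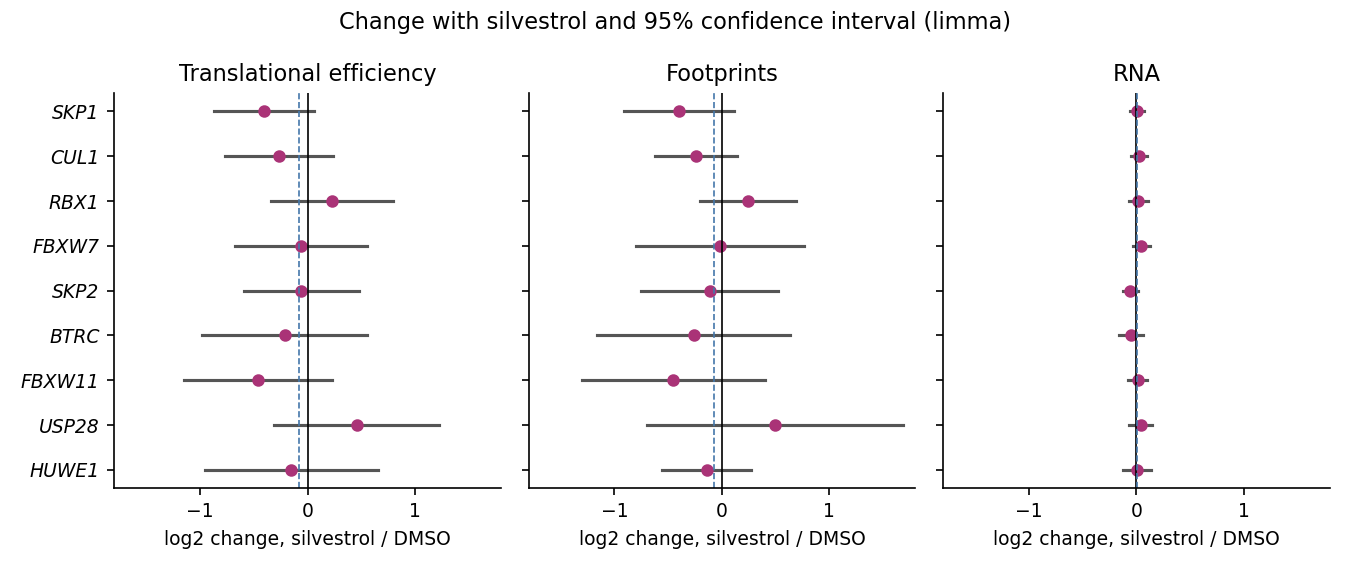
Log2 change with silvestrol against DMSO (points) and 95% confidence interval from limma (lines) for translational efficiency, footprints and RNA, with the median of all 10297 tested genes dashed. Every interval crosses 0; those for RNA stay within 0.16 of 0, and those with footprints are several times wider.

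**Figure D3:**
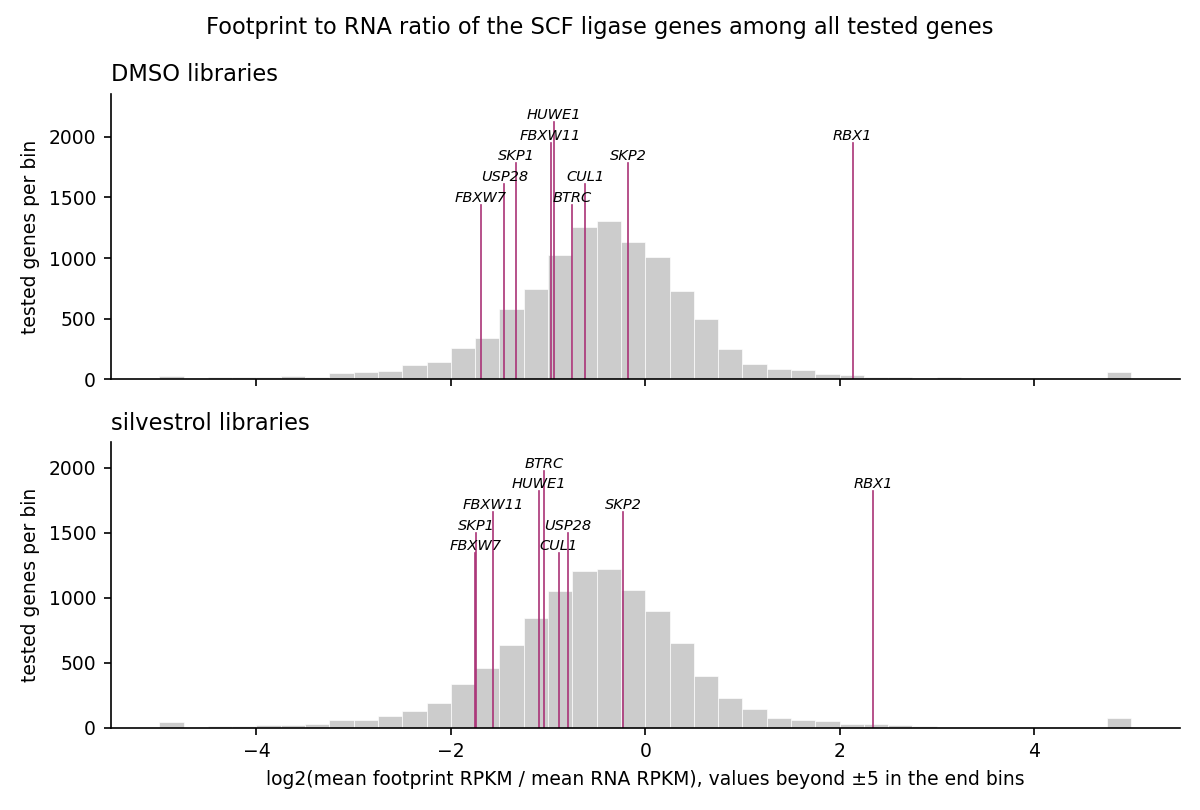
Log2 of mean footprint RPKM over mean RNA RPKM for all 10297 tested genes (grey bars, genes per bin) with the 9 genes marked, in DMSO (top) and silvestrol (bottom). RBX1 lies in the right tail in both treatments, and FBXW7 in the left part of the distribution in both.

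The genes whose values moved most like those of FBXW7 over the 10 libraries, each assay centred on its own mean, were OMA1 (Pearson r = 0.98), FBXO4 (0.977), CWC27 (0.977), PARP8 (0.972) and the unnamed gene ENSG00000251499.1 (0.972). The points are 4 footprint and 6 RNA libraries of 1 cell line, and footprint values vary more than RNA values, so the coefficients are a description. OMA1 is a mitochondrial protease and FBXO4 is itself an F-box protein. The other members reached from -0.393 (BTRC) to 0.435 (RBX1). With silvestrol FBXW7 changed by only -0.01 in footprints and 0.05 in RNA on the log2 scale. Its profile is therefore mostly difference between replicates, and the coefficients cannot show whether it followed the core subunits.

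The wider ubiquitin pathway was read from 9 lists with 194 symbols, of which 192 matched and 168 were tested. In translational efficiency 0 of the 168 were called by limma. At an unadjusted p under 0.05, 9 were lower and 1 higher, beside 760 of all 10297 genes in either direction. With 1 spread for both assays 10 were lower and 1 higher at an adjusted p under 0.05. That setting called 3.99% of all tested genes lower and 1.30% higher, and it gave many false calls in an earlier simulation. The 10 lower genes were UBE2F, UBE2D2, UBE2G1, UBE2L3, FBXO44, DTX1, MYC, JUNB, MED13 and MED13L, and the higher one was NFKB2; apart from MYC and JUNB they are named after their values were seen. In footprints 0 were called, with 7 lower and 2 higher at an unadjusted p under 0.05, beside 719 of all 10297 genes. In RNA 2 were called, both higher (MYC and JUNB), beside 0.272% of tested genes.

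Among the 10 tested genes of neddylation and exchange and the 10 subunits of the COP9 signalosome, the limma fits with weights per assay, of footprints and of RNA called none. With 1 spread for both assays, UBE2F, an E2 enzyme for NEDD8, was called lower in translational efficiency (log2 change -0.51, limma adjusted p = 0.0309, against 0.676 with weights). NEDD8, the ubiquitin-like protein attached to CUL1, had footprints of 2.50 and 2.02 RPKM in DMSO and 2.17 and 2.66 RPKM in silvestrol, at RNA levels near 20 RPKM. CAND1, which exchanges F-box proteins, had 25.0 and 25.1 RPKM against 22.7 and 23.3 RPKM, and COPS5, the subunit of the COP9 signalosome that removes NEDD8, 16.9 and 17.8 RPKM against 14.7 and 14.8 RPKM. CAND1 and COPS5 were lower in both silvestrol libraries, as were 25.2% of all tested genes, and did not pass the test. Other COP9 subunits went the other way, such as COPS8 with 5.86 and 5.58 RPKM in DMSO and 8.07 and 6.63 RPKM in silvestrol, a gene named after its values were seen. Log2 changes of translational efficiency were 0.07 for NEDD8, -0.15 for CAND1 and -0.24 for COPS5, with limma adjusted p of 0.979, 0.928 and 0.866. The median over 10 tested genes of neddylation and exchange was -0.06, over 10 COP9 subunits 0.08 and over 8 other cullins with the RING protein RNF7 -0.13, beside -0.08 over all tested genes. RNF7, the RING protein in that last list, varied widely between footprint libraries, at 9.11 and 4.78 RPKM in DMSO against 3.34 and 9.37 RPKM in silvestrol.

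CDC34, an E2 enzyme of SCF, had footprints of 6.38 and 13.4 RPKM in DMSO and 12.2 and 17.3 RPKM in silvestrol, which overlap, and a log2 change of translational efficiency of 0.61 (limma adjusted p = 0.777). Over 13 tested genes of ubiquitin, E1 and E2 enzymes the median was -0.09, and limma with weights called none. At an unadjusted p under 0.05, 3 were lower, beside 760 of all 10297 genes in either direction. The same 3 E2 genes were called lower with 1 spread, at adjusted p of 0.0027 for UBE2L3, 0.0348 for UBE2D2 and 0.0368 for UBE2G1. Of 58 other F-box symbols listed 42 were tested, with a median of -0.17. The limma fits with weights, of footprints and of RNA called none of the 42. With 1 spread FBXO44 was called lower in translational efficiency (log2 change -0.91, limma adjusted p = 0.0079, against 0.386 with weights). CKS1B, the cofactor of SKP2, changed by 0.11 and GSK3B, a kinase that writes the FBXW7 degron, by -0.50 (limma adjusted p = 0.972 and 0.689). The list of degron kinases and cofactors had a median of -0.14 over 19 genes, and the list of other ligases and deubiquitinases of MYC and NOTCH -0.14 over 20.

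Among 24 tested FBXW7 substrates, 2 rose in RNA by limma, and none was called in footprints or, with weights per assay, in translational efficiency. With 1 spread for both assays limma called 4 lower and 1 higher in translational efficiency: adjusted p was 0.0180 for MYC, 0.0351 for JUNB, 0.0392 for MED13, 0.0096 for MED13L and, higher, 0.0492 for NFKB2. With weights, adjusted p of these 5 genes was 0.483 or more. MYC RNA was 82.3, 77.7 and 73.8 RPKM in DMSO and 112, 98.0 and 98.7 RPKM in silvestrol, with no overlap. The log2 change was 0.40 with an SE of 0.06 and a limma adjusted p of 0.0451. Its footprints were 136 and 142 RPKM against 113 and 123 RPKM, and its translational efficiency changed by -0.63 (interval -1.50 to 0.23, limma adjusted p = 0.777). JUNB, an AP-1 transcription factor, had RNA of 26.5, 28.7 and 27.4 RPKM against 34.1, 32.0 and 33.6 RPKM. Its log2 change was 0.27 with an SE of 0.04 and a limma adjusted p of 0.0226. Both RNA calls were lost when single libraries were left out. The MYC adjusted p then reached 0.196, the call ending without DMSO replicate 1, 2 or 3 or silvestrol replicate 2 or 3, and it was 0.0811 with median scaling 0.0525 with trimmed means and 0.471 with no filter on low values. With libraries left out the JUNB adjusted p reached 0.112, the call ending without DMSO replicate 1 or 3 or silvestrol replicate 3, and it was 0.381 with no filter.

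NOTCH1, CCNE1 and MCL1 were called in none of these fits, with weights or with 1 spread. NOTCH1 had footprints of 16.3 and 11.9 RPKM in DMSO and 13.6 and 12 RPKM in silvestrol, which overlap. CCNE1, cyclin E, had 6.70 and 5.86 RPKM against 3.44 and 5.17 RPKM, lower in both silvestrol libraries. Their log2 changes of translational efficiency were -0.19 and -0.51, and that of MCL1, an anti-apoptotic protein, was 0.08, with limma adjusted p of 0.942, 0.716 and 0.972. The median over the FBXW7 substrates was -0.18.

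For the substrates of SKP2 and BTRC, 22 of 27 were tested and limma called none in any comparison, with weights or with 1 spread, and 0 had an unadjusted p under 0.05 in translational efficiency. The log2 change of translational efficiency was 0.03 for CDKN1B, -0.21 for CTNNB1 (beta-catenin), 0.26 for NFKBIA and -0.71 for PDCD4, with limma adjusted p of 0.995, 0.921, 0.832 and 0.710. PDCD4 footprints, at 17.1 and 10.4 RPKM in DMSO against 6.21 and 10.7 RPKM in silvestrol, overlapped. The list median was -0.12.

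**Figure D4:**
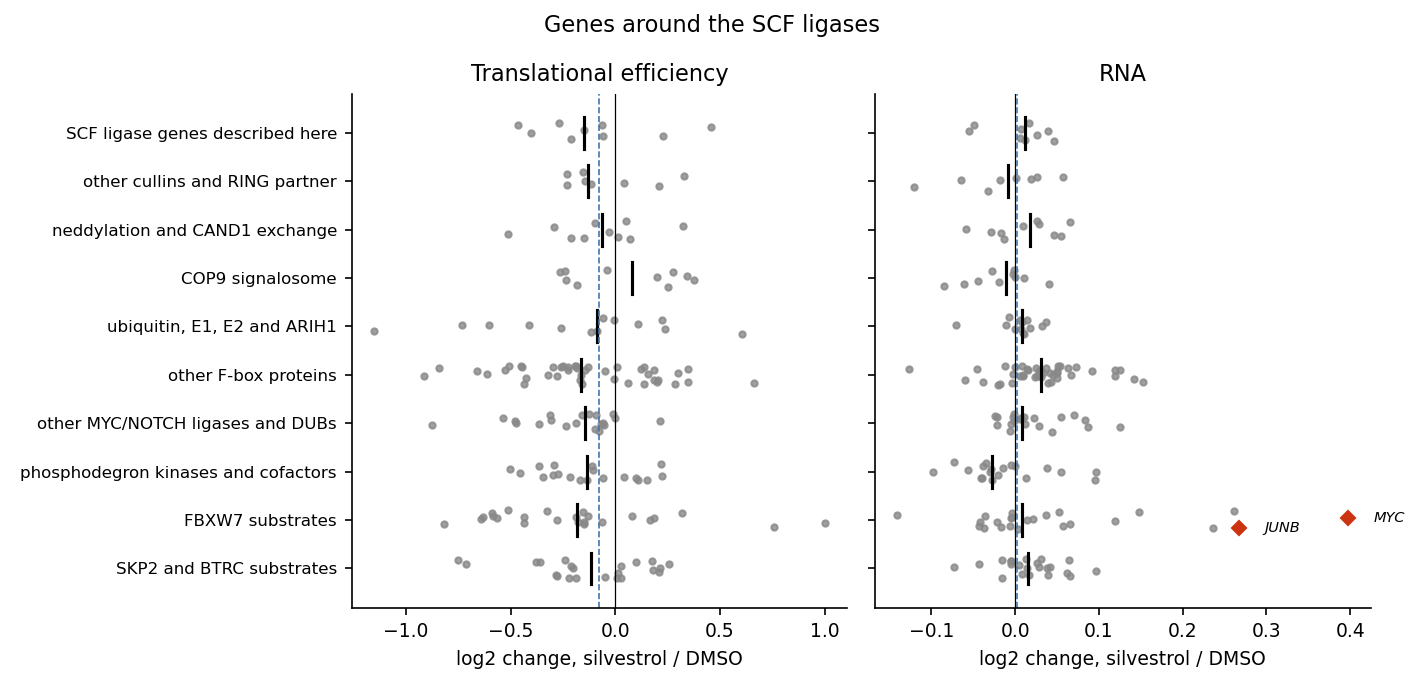
Log2 change with silvestrol for each tested gene of the 9 SCF ligase genes and the 9 pathway lists, for translational efficiency (left) and RNA (right), with the 2 axes on different scales. Points are genes, black bars list medians, the dashed line the median of all tested genes; red diamonds mark genes called, MYC and JUNB in RNA.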

How the data were processed

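Per the file headers, each library's deposited table holds RPKM for 55889 gene IDs from Ensembl. The submitters' processing notes name STAR and hg19. Not given in the sources used here are the counter, annotation, gene lengths, strand use and how multi-mapped reads were treated. Names came from a gene table (49395 IDs) and GENCODE release 29 (267), and 6227 IDs have none. That release is on GRCh38, so its coordinates were not set against the files and only lengths and transcript sequences were used.

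Values were analysed as log2(RPKM + 0.5). Genes with a mean of at least 1 RPKM over RNA and over footprint libraries were tested. The tests used limma 3.58.1 in R 4.3.3 (lmFit, eBayes with trend and robust), two-sided, with Benjamini-Hochberg adjustment over all 10297 genes. Translational efficiency was the interaction of assay and treatment over 10 libraries with 1 weight per assay (averages 0.119 for footprints and 4.12 for RNA), since footprints vary more. Footprints and RNA were also fitted alone. The fits were run on simulated data with a spread set by hand, and the outcome is not given here. In an earlier analysis of these data, 1 spread for both assays gave many false calls in simulation, so it is an alternative only.

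Depth was estimated from the steps between low values and exon lengths. In genes of 1 transcript and under 10.5 reads, 90.7% to 93.1% of values were whole reads within 0.05. No count model was run on RPKM. Voom weights on estimated reads, other pseudocounts, filters, scalings, a replicate block, 1 spread and leaving out each library were alternatives.

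The members, lists and tests were chosen with earlier results of these data known. The text names all members, every list gene called (at most 4 per direction), 15 further list genes set by name whether called or not, and the 5 genes most like FBXW7. Unmatched were the list symbols FBXO17 and FBXO18, the latter an older symbol of FBH1, which is also listed and was tested, and the stromal marker PECAM1.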

Additional observations from a re-analysis of the deposited data

How the results depend on the processing

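No member was called under any alternative: 176 values in 20 alternatives for translational efficiency, 95 in 11 for footprints and 113 in 13 for RNA. Small changes turned sign with scaling. With median scaling, translational efficiency was 0.0032 for FBXW7 and 0.0040 for SKP2, FBXW7 footprints were 0.037, and RNA was -0.0069 for SKP1, -0.0015 for FBXW11 and -0.0060 for HUWE1 (log2). With trimmed means (TMM), FBXW7 and SKP2 translational efficiency were 0.012 and 0.024 and FBXW7 footprints 0.053. Leaving out each library gave translational efficiency of -0.28 to 0.15 for FBXW7, -0.34 to 0.22 for SKP2, -0.0029 to 0.46 for RBX1, -0.91 to 0.45 for RNF7, -0.41 to 0.033 for NOTCH1, -0.056 to 0.20 for NEDD8, -0.13 to 0.29 for MCL1, -0.052 to 0.11 for CDKN1B and -0.21 to 0.43 for CKS1B. It gave footprints of -0.23 to 0.20 for FBXW7 and -0.39 to 0.16 for SKP2, and RNA of -0.040 to 0.065 for HUWE1, -0.0091 to 0.038 for FBXW11, -0.015 to 0.025 for SKP1 and -0.020 to 0.042 for RBX1.

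Counts of genes called over all tested genes moved more. For translational efficiency, 11 were called, 271 with no filter, 545 with 1 spread, 20 with voom weights, 59 with 1 spread and the replicate block (an alternative chosen after seeing the data), and 8 to 44 with a library left out. For footprints, 5 were called, 2 with pseudocount 0.1, 0 with no filter, 2 with a mean of at least 5 RPKM, 8 with TMM scaling, 1 with the replicate block, and 0 to 0 with a library left out. For RNA, 29 were called, 0 with no filter, 57 with the replicate block, and 0 to 35 with a library left out. The cause was not tested. The labels do not say whether equal replicate numbers pair the libraries. Correlations of same-numbered DMSO and silvestrol libraries were mixed, at 0.0422, -0.327 and 0.15 in RNA and at -0.0332 in footprints. With 2 footprint libraries per treatment, both numbers give that same footprint value by construction. With the block, translational efficiency called 13 genes and no member. A lone footprint library of a treatment is assumed to vary like the other groups. USP28 had the fewest estimated footprint reads of the members, 6.99 to 19.0 per library.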

Other observations

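UBE2L3, the E2 enzyme that works with the ligase ARIH1 on neddylated cullins, was singled out after its values were seen. Its footprints were 4.48 and 4.86 RPKM in DMSO and 1.64 and 2.05 RPKM in silvestrol, with no overlap. Its RNA was 40.5, 40.6 and 39.9 RPKM against 40.3, 41.3 and 40.0 RPKM. The log2 change of translational efficiency was -1.15 (SE 0.20), with a limma adjusted p of 0.0733, so it did not pass the test. Adjusted p was 0.0356 with a pseudocount of 0.1, 0.0074 with no filter, 0.0027 with 1 spread for both assays and 0.178 with voom weights. With each library left out in turn it was 0.0592 to 0.294.

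The pseudogene RBX1P1, which shares no 28-base coding window with RBX1 in GENCODE release 29, was listed with footprints of 5.41 and 3.69 RPKM in DMSO and 11.6 and 16.6 RPKM in silvestrol. These rest on an estimated 4, 2, 8.99 and 11 reads, and its RNA was listed at 0 in all 6 libraries. It was also chosen after its values were seen, and it was not tested.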
